A study of Homo sapiens with 25 samples.

Results

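The comparison described here is that of NCI-H460 cells given antisense oligonucleotide (ASO) 5 against candidate 42, a long noncoding RNA named CHiLL1 in the labels, with NCI-H460 cells given a neutral control ASO. It rests on 4 of the 25 RNA sequencing libraries of the series, 2 with ASO5 and 2 with the control, picked by their labels. Of 59427 gene names in the deposited table, 13774 had a mean of at least 1 TPM (transcript abundance scaled for length and library) over the 10 NCI-H460 libraries and were tested. The study asked what 2 ASOs against each of 2 lncRNA candidates (42 and 240) do to the transcriptomes of NCI-H460 and A549, both established from human non-small cell lung cancers. NCI-H460 is a large cell carcinoma line and A549 an adenocarcinoma line. All libraries, the controls included, came from cells transfected with 25 nM of an ASO and collected 24 h later. The groups used are candidate 42 ASO5 in NCI-H460 (n = 2), candidate 42 ASO3 in NCI-H460 (n = 2), candidate 240 ASO1 and ASO3 in NCI-H460 (n = 2 each) and the NCI-H460 control (n = 2), which is Qiagen's Control A. In A549 they are candidate 42 ASO5 (n = 3) and the control (n = 3). Nothing in the labels ties the replicates to separate cultures, so p-values measure only the spread between these libraries, which may be technical. The sequences of the ASOs were not used here.

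ASOs of the kind used for knockdown pair with a target RNA in the cell, and the enzyme RNase H then cuts the RNA strand of the duplex. Because pairing with other transcripts is possible and because transfected oligonucleotides can be sensed by the cell, studies of this design use several ASOs per target and look for what they share. NF-kB, a transcription factor, raises chemokine genes in epithelial cells.

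The deposited values were rescaled TPM, from which the number of reads cannot be read, so depth is unknown. In the NCI-H460 libraries 23879 to 27624 gene names had a value above 0, and 7.62% to 9.85% of the signal was mitochondrially encoded. The candidate 42 ASO3 libraries stood apart from the rest on the first principal component (48.2% of the variance), at 72.2 and 38.7, against at most 3.06 in the other 8 libraries. The ASO5 libraries stood apart on the third component (8.04%), at 27.8 and 18.7, against at most 1.27. The epithelial keratins KRT8, KRT18 and KRT19 stood at 554 TPM or more in all 4 compared libraries, while EPCAM and CDH1 lay under 1 TPM in each, as did all 4 lung alveolar markers. Markers of endothelial and squamous cells averaged under 1 TPM, 5 of 5 in both lists, and so did 5 of 6 leukocyte markers. Summed over its list, the epithelial marker level was 3570 and 3914 TPM in the ASO5 libraries, against 3230 and 3303 TPM in the controls, and no marker of any of the 7 lists was called. The leukocyte list summed to 10.2 to 12.2 TPM with ASO5, against 14.1 to 20.05 TPM in the controls, nearly all of it CD14, a receptor subunit for bacterial lipopolysaccharide, at 11.8 and 10.2 TPM, against 13.7 and 19.9 TPM (log2 fold change -0.57, adjusted p = 0.257). The neuroendocrine list summed to 24.1 to 27.7 TPM with ASO5, against 25.1 to 28.7 TPM, mostly the granule protein CHGA at 24.3 and 21.5 TPM, against 21.2 and 19.97 TPM. NCAM1, a neural adhesion molecule of that list, stood at 1.46 and 1.23 TPM with ASO5, against 4.41 and 3.13 TPM with the control (-1.19, adjusted p = 0.0739), and was called lower in a fit without the ASO3 libraries. The fibroblast list summed to 8.89 to 12.6 TPM, against 11.3 to 11.9 TPM.

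For the RNA taken as candidate 42, AC107959.3, the difference between ASO5 libraries and controls in NCI-H460 did not pass the test. The labels do not tie candidate 42 to a gene in the table, so this match is an assumption. The gene is annotated as antisense and occupies bases 23071377 to 23074488 of chromosome 8 (hg38, minus strand). AC107959.3 was measured at 1.88 and 1.46 TPM with ASO5, against 1.16 and 2.33 TPM with the control, and the ASO5 values lay between the control values. With the candidate 240 ASOs in the same line it stood at 5.92 and 2.89 TPM (ASO1) and at 5.34 and 6.54 TPM (ASO3), so that both ASO5 libraries and both controls lay below all 4 of these libraries. The log2 fold change was -0.01 (SE 0.34, limma, adjusted p = 0.995). In the same line ASO3 left 0.516 and 0.541 TPM, below both controls, and AC107959.3 was 1.07 higher on the log2 scale with ASO5 than with ASO3 (SE 0.34, adjusted p = 0.0405). The median ASO5 minus ASO3 difference over all genes was 0.21. In A549 the ASO5 libraries held 4.81, 2.80 and 2.66 TPM, against 7.13, 5.12 and 10.6 TPM in controls, and this difference did not pass the test (log2 fold change -1.03, SE 0.37, adjusted p = 0.166). In bulk RNA, fewer cells with a transcript and less of it per cell cannot be told apart. No source used here says how strand was handled, so reads of an antisense gene and of its partner cannot be told apart.

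TNFRSF10B, whose gene lies next to AC107959.3 and encodes a death receptor for the ligand TRAIL, stood at 82.5 and 87.1 TPM with ASO5, against 90.0 and 85.0 TPM with the control. The ranges overlapped (log2 fold change -0.04, SE 0.08, adjusted p = 0.849). Of the 10 genes tested around AC107959.3, among them the receptor genes TNFRSF10A and TNFRSF10D, 0 were called by limma and 0 had an unadjusted p under 0.05.

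Across all genes, 70 of 13774 (0.508%) were called at a Benjamini-Hochberg adjusted p under 0.05, 25 of them higher with ASO5 (0.182%) and 45 lower (0.327%). The median log2 fold change of all genes tested was 0.01. An unadjusted p under 0.05 was found for 2093 genes, 1182 of them higher (8.58%) and 911 lower (6.61%). The authors' deposited table for the same comparison holds 0 of 18732 genes with a q-value under 0.05, and 1317 with a q-value under 0.1. All 70 genes called here have a q-value under 0.1 and the same sign in the authors' deposited table. That table rests on the same libraries, so this match is a description. Leaving out any 1 of the 4 compared libraries left 0 calls, with 1166 to 1586 genes at an unadjusted p under 0.05, and the 70 genes kept their sign each time. In all 70 both ASO5 libraries lay on one side of both controls, so leaving out 1 library could not change a sign. The calls also depended on the candidate 42 ASO3 libraries, through the estimate of the spread. Without them 380 genes were called, 218 higher (1.58%) and 162 lower (1.18%), the 70 among them.

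The 12 highest calls with a group mean of at least 5 TPM included a neuronal protein, a hydroxylase, a secreted gastrokine and lipid transfer proteins. CEND1, a neuronal protein linked to exit from the cell cycle, stood at 6.95 and 6.52 TPM with ASO5, against 1.46 and 1.02 TPM with the control (log2 fold change 2.07, SE 0.20, adjusted p = 0.00933). KDM8, a hydroxylase of the JmjC family, stood at 6.20 and 6.74 TPM, against 1.72 and 1.61 TPM (1.69, SE 0.18, adjusted p = 0.00933). In both genes the ASO5 libraries lay far above the controls, and the replicates lay close together. Neither gene is tested with the filter at a mean of at least 5 TPM over the NCI-H460 libraries.

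CYSRT1, a cysteine-rich protein, stood at 6.78 and 10.006 TPM with ASO5, against 2.97 and 2.22 TPM with the control (log2 fold change 1.51, adjusted p = 0.0302). GKN2, a secreted gastrokine best known from stomach lining, stood at 6.10 and 4.09 TPM, against 0.344 and 0.86 TPM (2.36, adjusted p = 0.0162). Both genes were uneven between the ASO5 replicates. They did not overlap with the controls, which the choice of these genes fixes. IFI30, a thiol reductase of lysosomes, stood at 36.0 and 35.8 TPM with ASO5, against 19.0 and 19.9 TPM with the control (0.87, adjusted p = 0.0411). EPS8L2, a regulator of actin, stood at 19.1 and 25.6 TPM, against 10.6 and 11.0 TPM (1.00, adjusted p = 0.0461). ZNF385A, a zinc finger protein that binds nucleic acids, stood at 21.1 and 23.7 TPM, against 12.6 and 11.2 TPM (0.88, adjusted p = 0.0224). STARD10, a lipid transfer protein, stood at 6.69 and 6.10 TPM with ASO5, against 3.16 and 3.12 TPM with the control (0.92, adjusted p = 0.0441). CYSRT1, EPS8L2 and STARD10 were not called with no filter on low values, with columns scaled to 1e+06 or in a fit of the compared groups only. IFI30 was not called with no filter or with median-of-ratios scaling, ZNF385A with columns scaled to 1e+06, or GKN2 in the compared groups only. GKN2 is also not tested at a mean of at least 5 TPM.

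The genes that fell with ASO5 had varied roles, in RNA handling, vesicle traffic, signalling and metabolism. RBM6, an RNA-binding protein that takes part in splicing, stood at 6.50 and 7.68 TPM with ASO5, against 16.6 and 19.9 TPM with the control, or 38.8% of the control mean (log2 fold change -1.31, SE 0.13, adjusted p = 0.00933). REPS1, a protein of endocytosis, stood at 14.8 and 15.2 TPM, against 31.5 and 33.1 TPM (-1.08, SE 0.10, adjusted p = 0.00933). FARS2, the mitochondrial phenylalanine tRNA synthetase, stood at 4.74 and 4.37 TPM, against 10.6 and 11.0 TPM (-1.16, SE 0.16, adjusted p = 0.0215). For each of these genes the replicates of a group differed little beside the gap between the groups.

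GALNT12, an enzyme that starts mucin-type sugar chains, stood at 4.06 and 4.19 TPM with ASO5, against 10.1 and 9.19 TPM with the control. BBS2, part of the BBSome of primary cilia, stood at 9.999 and 9.90 TPM, against 21.0 and 19.5 TPM. DHX32, a DEAH-box helicase, stood at 13.4 and 14.1 TPM, against 27.2 and 29.3 TPM. All 3 genes fell by between 0.98 and 1.14 on the log2 scale, with no overlap between groups, which the choice of genes fixes. TSEN15, a subunit of the endonuclease that splices tRNAs, stood at 34.3 and 26.6 TPM with ASO5, against 57.4 and 63.4 TPM with the control (-0.99, adjusted p = 0.019). HIPK2, a nuclear kinase, stood at 8.18 and 9.95 TPM, against 19.3 and 20.1 TPM (-1.09, adjusted p = 0.0316). PLCB1, a phospholipase C, stood at 13.8 and 11.6 TPM, against 29.3 and 24.8 TPM (-1.06, adjusted p = 0.0346). Also lower were 3 genes with no protein name, LINC01035 (-1.25), AC009119.1 (-1.13) and AC109466.1 (-1.09), each with adjusted p-values of 0.033 to 0.0452. These 3 genes and HIPK2 were not called with no filter or with columns scaled to 1e+06. PLCB1 was not called with no filter, and TSEN15 and AC109466.1 were not called in the compared groups only.

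**Figure D1:**
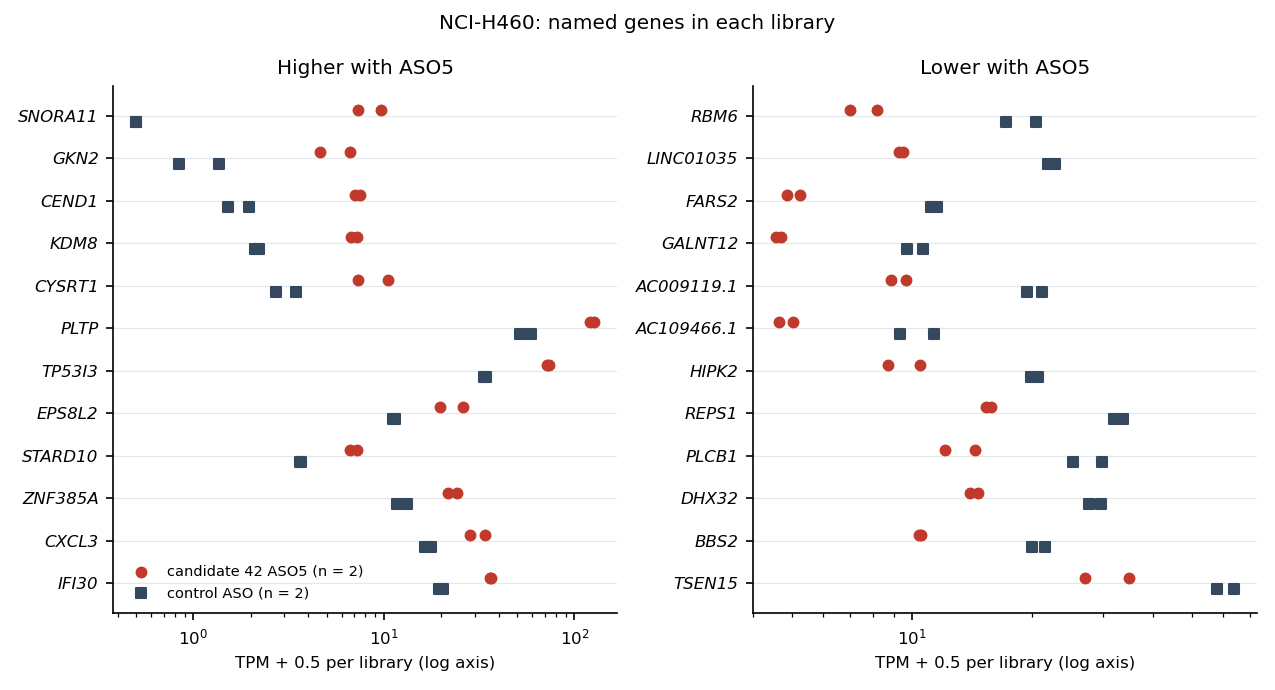
TPM + 0.5 of the 12 genes with the highest and the 12 with the lowest log2 fold change among calls with no overlap and a group mean of at least 5 TPM (log axis), 1 point per NCI-H460 library, for candidate 42 ASO5 (circles, n = 2) and the control ASO (squares, n = 2). The points of the groups do not overlap for any of the 24 genes, which the choice of genes fixes, and SNORA11 is listed at 0 in both controls.

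Among the genes listed at 0 in a group, SNORA11 and its host gene moved in opposite directions. SNORA11 belongs to the H/ACA small nucleolar RNAs, a class that guides the conversion of uridine to pseudouridine in other RNAs. Its sequence is shown because it is the only small nucleolar RNA among the 70 calls. The gene lies inside MAGED2, a member of the MAGE family, at chrX:54814370-54814497 on the plus strand (hg38). The annotated RNA of 128 bases overlaps 0 exons of MAGED2 (X, 54807599 to 54816015, plus strand) and lies within 8 of its 13 annotated transcripts. The capitals mark the closing ACA triplet, after which the class is named.
SNORA11: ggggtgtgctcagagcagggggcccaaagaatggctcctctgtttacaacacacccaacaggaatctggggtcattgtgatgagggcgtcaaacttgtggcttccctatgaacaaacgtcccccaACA

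SNORA11 stood at 9.10 and 6.82 TPM with ASO5 and was listed at 0 in both controls (adjusted p = 0.00933). MAGED2 stood at 27.0 and 29.4 TPM with ASO5, against 55.1 and 51.3 TPM with the control (log2 fold change -0.91, SE 0.10, adjusted p = 0.00933). With candidate 42 ASO3, SNORA11 stood at 2.71 and 3.83 TPM and MAGED2 at 116 and 102 TPM. MAGED2 was thus lowest in the ASO5 libraries of the 10, and 1.93 lower on the log2 scale than with ASO3 (SE 0.10, adjusted p = 2.6e-05). In A549, MAGED2 stood at 25.2, 18.6 and 19.0 TPM with ASO5, against 69.4, 59.2 and 66.7 TPM with the control (-1.62, SE 0.13, adjusted p = 4.69e-05). SNORA11 there stood at 11.7, 19.9 and 17.1 TPM with ASO5, against 0, 0 and 5.42 TPM with the control (adjusted p = 0.0539). Without counts, the precision of values for so short a gene is unknown. SNORA11 is not tested at a mean of at least 5 TPM.

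**Figure D2:**
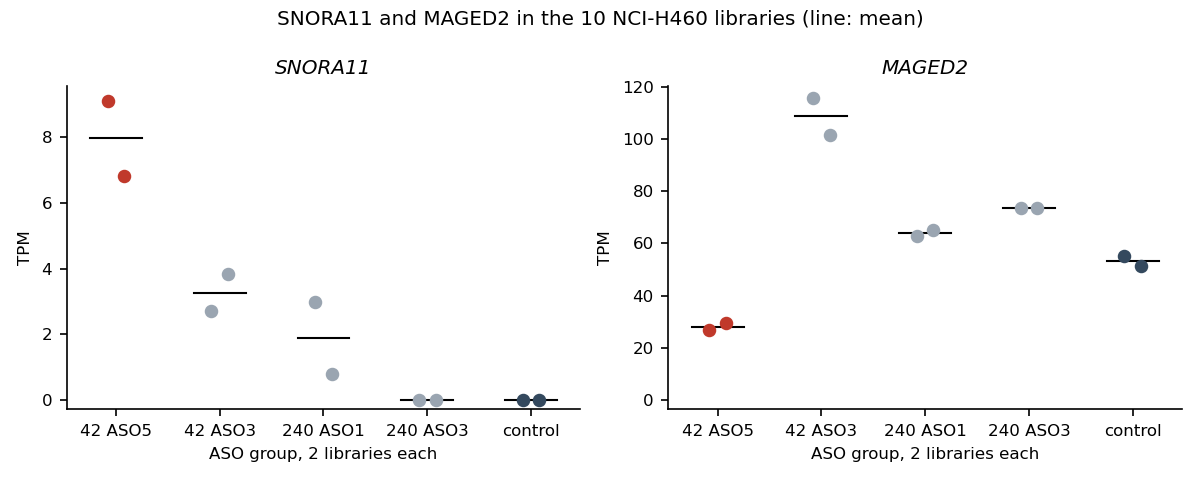
TPM of SNORA11 (left) and MAGED2 (right) in the 10 NCI-H460 libraries by ASO group, with 1 point per library and a line at the mean of 2. The ASO5 libraries hold the highest SNORA11 values, 9.10 and 6.82 TPM, and the lowest MAGED2 values, 27.0 and 29.4 TPM.

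PVRIG2P, a pseudogene, was listed at 0 in both ASO5 libraries, against 3.55 and 3.62 TPM in the controls (adjusted p = 0.0182). It was also listed at 0 in both candidate 42 ASO3 libraries and reached 0.1 to 2.13 TPM in the candidate 240 libraries. Reads of a pseudogene can be split with its parent gene, so this value is uncertain. PVRIG2P is not tested at a mean of at least 5 TPM.

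A cell cycle inhibitor and a pair of oxidoreductases were also among the genes that rose. TP53I3, a quinone oxidoreductase, stood at 73.0 and 70.9 TPM with ASO5, against 33.2 and 33.9 TPM with the control (1.09, SE 0.11, adjusted p = 0.00933). FDXR, the mitochondrial ferredoxin reductase, stood at 63.2 and 64.0 TPM, against 38.02 and 33.7 TPM (0.82, SE 0.09, adjusted p = 0.0109). CDKN1A, the gene of the CDK inhibitor p21, stood at 103.5 and 101.4 TPM, against 67.7 and 65.4 TPM (0.62, SE 0.08, adjusted p = 0.019). All 3 genes lay above both controls in both ASO5 libraries, as did every gene called higher. The gap was far larger than the difference between replicates. CDKN1A was not called with columns scaled to 1e+06, where its log2 fold change was 0.55.

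CDKN1A separated the ASOs of candidate 42. It stood at 64.6 and 69.2 TPM with ASO3, on either side of the controls, and was 0.61 higher on the log2 scale with ASO5 than with ASO3 (SE 0.08, adjusted p = 0.00131). With candidate 240 ASO3 it stood at 128.2 and 131.1 TPM, above the ASO5 libraries. TP53I3 was likewise 0.71 higher with ASO5 than with ASO3 (adjusted p = 0.00261), while FDXR differed by -0.06 (adjusted p = 0.673). The median ASO5 minus ASO3 difference over all genes was 0.21, against which these values are to be read. Median-of-ratios scaling divides the ASO3 libraries by 0.879 and 0.912, and the ASO5 and control libraries by 1.03 to 1.05. The place of ASO3 beside the controls therefore depends on the scaling. Of 26 genes of the BCL2 family and caspases, which carry out apoptosis, 0 were called by limma, with a median of 0.14. At an unadjusted p under 0.05, 5 were higher (19.2%, beside 8.58% of all genes) and 0 lower. Without the ASO3 libraries, a fit chosen after seeing the data, 2 were called higher, BID and BBC3, both promoters of apoptosis. Their adjusted p-values in that limma fit were 0.049 and 0.0414, and 1.58% of all genes were called higher in it.

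Of 20 NF-kB target genes tested, 3 were called higher and 0 lower, beside 0.182% and 0.327% of all genes. Their median log2 fold change was 0.23, beside 0.01 over all genes. CXCL2, a chemokine that draws neutrophils, stood at 91.9 and 93.3 TPM with ASO5, against 57.1 and 54.1 TPM with the control (0.73, SE 0.10, adjusted p = 0.0215). CXCL3, from the same chemokine cluster, stood at 33.5 and 27.98 TPM, against 17.2 and 15.8 TPM (0.87, SE 0.15, adjusted p = 0.0461). NFKB2, which encodes the p100 and p52 proteins of the NF-kB family, stood at 69.8 and 63.8 TPM, against 39.1 and 34.2 TPM (0.86, SE 0.14, adjusted p = 0.0438). The groups did not overlap in any of the 3 genes, which holds for every gene called. CXCL2 and CXCL3 are close copies of each other, so how their shared reads were split is uncertain. Other well known targets did not pass the test. CXCL8, the interleukin 8 gene, stood at 270 and 225 TPM with ASO5, against 219 and 232 TPM with the control (0.13, adjusted p = 0.785), and IL6 at 183 and 167 TPM, against 203 and 169 TPM (-0.08, adjusted p = 0.857). NFKBIA, the NF-kB inhibitor that NF-kB itself induces, stood at 50.4 and 48.7 TPM, against 39.6 and 37.0 TPM (0.37, adjusted p = 0.103). CXCL8, IL6 and NFKBIA were chosen after their values were seen. The count was 2 with median-of-ratios scaling and in the compared groups only, and 1 with each column scaled to 1e+06 or with no filter.

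The promoters of the 3 called NF-kB targets are shown because each holds a match to the kB consensus, searched by its IUPAC letters on both strands with overlapping matches kept. The windows are the 250 bases before the transcription start (RefSeq, GRCh38.p14), given 5′ to 3′ on the gene's strand, with matching bases in capitals. They lie at chr4:74099196-74099445 on the minus strand for CXCL2, at chr4:74038690-74038939 on the minus strand for CXCL3 and at chr10:102394328-102394577 on the plus strand for NFKB2. Of the RefSeq starts of NFKB2, the first whose window holds a match is shown.
CXCL2: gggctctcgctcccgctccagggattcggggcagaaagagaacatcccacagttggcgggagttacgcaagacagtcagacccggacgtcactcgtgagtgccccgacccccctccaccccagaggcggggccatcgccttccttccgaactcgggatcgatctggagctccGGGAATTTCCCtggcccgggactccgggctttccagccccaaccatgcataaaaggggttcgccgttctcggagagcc
CXCL3: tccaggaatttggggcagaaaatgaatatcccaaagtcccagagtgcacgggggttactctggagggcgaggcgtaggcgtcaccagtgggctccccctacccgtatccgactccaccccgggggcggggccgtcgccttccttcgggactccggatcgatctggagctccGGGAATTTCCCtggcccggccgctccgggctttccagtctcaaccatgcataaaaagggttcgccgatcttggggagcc
NFKB2: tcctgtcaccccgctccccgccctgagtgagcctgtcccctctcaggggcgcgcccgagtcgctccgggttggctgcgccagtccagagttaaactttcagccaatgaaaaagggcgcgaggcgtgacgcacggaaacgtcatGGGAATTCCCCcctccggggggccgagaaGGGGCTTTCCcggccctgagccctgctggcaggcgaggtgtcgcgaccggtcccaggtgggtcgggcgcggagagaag

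CXCL2 and CXCL3 share the same capital letters at nearly the same distance from the start, and NFKB2 holds matches at separate places. A match was found in 11 of the 16 NF-kB targets with a window (68.8%) and in 6.28% of the 27305 genes with one. The list is made of known NF-kB targets, so its share is no result of these libraries, and a match describes letters only.

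Of 9 genes of lipid export linked to the nuclear receptor LXR, 2 were called higher and 0 lower, beside 0.182% and 0.327% of all genes. The median of these genes was 0.24. PLTP, the phospholipid transfer protein of plasma lipoproteins, stood at 120.3 and 127 TPM with ASO5, against 58.5 and 51.4 TPM with the control (1.16, SE 0.12, adjusted p = 0.00933). APOE, the apolipoprotein E gene, stood at 5.96 and 3.87 TPM, against 1.53 and 0.811 TPM (1.70, SE 0.27, adjusted p = 0.0411). APOE was not called with no filter or in the compared groups only and is not tested at a mean of at least 5 TPM, which leaves PLTP as the 1 call in each. PLTP was 0.72 higher with ASO5 than with ASO3 (adjusted p = 0.00287), whereas APOE was 0.84 lower (adjusted p = 0.0421), beside a median of 0.21 over all genes. Among the cholesterol exporters, ABCG1 stood at 7.83 and 8.07 TPM with ASO5, against 7.28 and 7.17 TPM with the control (0.13, adjusted p = 0.614), and ABCA1 lay under the filter. ABCG1 and ABCA1 were chosen after their values were seen. PLIN2, which coats lipid droplets and is in no list, stood at 8.92 and 8.96 TPM, against 4.86 and 4.95 TPM (0.80, adjusted p = 0.0296). PLIN2 was not called with columns scaled to 1e+06 or in the compared groups only.

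Of 28 interferon-stimulated genes tested, 1 was called higher with ASO5, OASL, a relative of the oligoadenylate synthetases, at 1.17 and 1.79 TPM, against 0.0754 and 0.13 TPM in the controls (1.70, SE 0.28, adjusted p = 0.0461). The median of the list was 0.16. For this list and those that follow, the shares over all genes were 0.182% called higher and 0.327% called lower. OASL was not called with a pseudocount of 0.1, no filter, median-of-ratios scaling, columns scaled to 1e+06 or the compared groups only, and is not tested at a mean of at least 5 TPM. Of 23 TGF-beta response genes, 1 was called higher, ID3, an inhibitor of basic helix-loop-helix factors, at 106.5 and 107 TPM, against 66.8 and 63.8 TPM (0.71, SE 0.11, adjusted p = 0.0411), with a list median of 0.04, which became -0.02 with columns scaled to 1e+06. ID3 was not called with no filter or with median-of-ratios scaling, which leaves 0 calls in the list. Of 23 lysosomal genes, with a median of 0.04 that became -0.02 with columns scaled to 1e+06, 1 was called lower, LIPA, the acid lipase, at 39.7 and 36.1 TPM, against 68.9 and 67.3 TPM (-0.84, SE 0.13, adjusted p = 0.0411). LIPA was not called with no filter or with columns scaled to 1e+06, which leaves 0 calls in the list. Of 20 genes of cytosolic tRNA synthetases, a list without FARS2, with a median of -0.04, 1 was called lower, IARS1, the isoleucine enzyme, at 103.8 and 99.9 TPM, against 150.5 and 154.5 TPM (-0.58, SE 0.09, adjusted p = 0.0316).

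Of 35 lists, 28 had 0 called members by limma, with medians between -0.14 and 0.26. The highest was that of 20 heat shock chaperones, of which 7 were higher at an unadjusted p under 0.05 (35%, beside 8.58% of all genes). HSPA1A stood at 67.8 and 73.6 TPM with ASO5, against 64.7 and 58.9 TPM with the control (0.19, adjusted p = 0.528). Of 25 genes of sterol synthesis and uptake, 5 were higher (20%) and 1 lower (4%) at that unadjusted level, beside 8.58% and 6.61% of all genes, with a median of 0.15. Of 38 genes of G2/M and mitosis, 1 was higher (2.63%) and 7 were lower (18.4%), beside the same shares of all genes, with a median of -0.13. Without the ASO3 libraries, 5 of the 20 heat shock genes, 4 of the 28 interferon-stimulated genes and 3 of the 25 sterol genes were called, all higher, and 0 of the 38 mitotic genes, beside 1.58% of all genes higher and 1.18% lower in that fit. In it 16 of the 35 lists had at least 2 called members. Among these were 2 of 21 immediate early genes, 2 of 15 MAPK feedback genes and 2 of 17 polyamine, MYC-linked and nucleolar genes, all higher, and 2 of 15 basement membrane genes, both lower. The lists overlap: the called immediate early genes were FOSL1, also counted in the MAPK list, and MYC, also counted in the polyamine, MYC-linked and nucleolar list. Calls in both directions were made for 25 YAP/TEAD targets (1 higher, 2 lower), 20 tRNA synthetases (1 higher, 2 lower), 17 integrin and focal adhesion genes (1 each way), 23 lysosomal genes (1 each way) and 9 LXR-linked genes (2 higher, 1 lower).

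**Figure D3:**
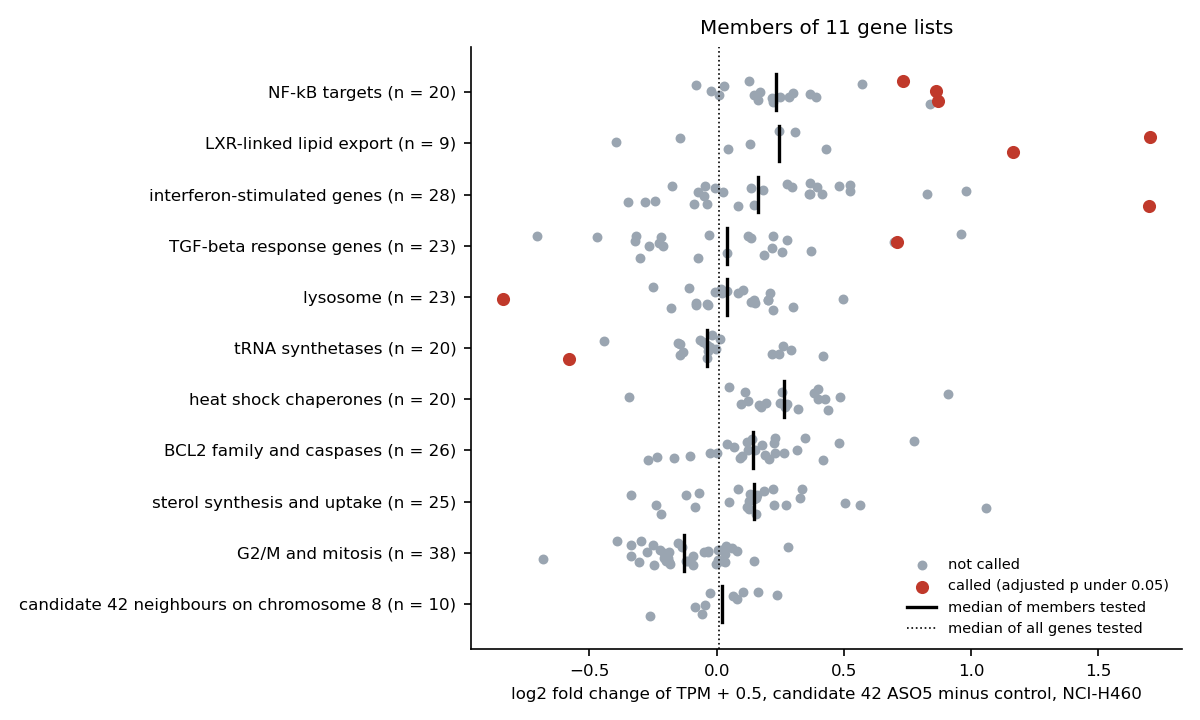
Log2 fold change of TPM + 0.5, candidate 42 ASO5 minus control in NCI-H460, for each tested member of 11 gene lists, with called members in red, a bar at the list's median and a dotted line at the median of all genes. Called members lie at the right edge of the NF-kB and LXR lists, whose medians are 0.23 and 0.24.

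The genes that fell were mostly long and those that rose were mostly short. The 45 lower genes had a median span of 131877 bp on the genome, and 27 of them (60%) spanned more than 100 kb. The 25 higher genes had a median span of 8429 bp, and 0 of them exceeded 100 kb, beside 17.4% of all tested genes with a span. Spans were taken from the coordinates of the authors' deposited table. The median log2 fold change over all genes fell along the bins of span, at 0.10 under 10 kb, 0.06 from 10 to 30 kb, -0.03 from 30 to 100 kb, -0.12 from 100 to 300 kb and -0.24 over 300 kb. The share of genes called lower was 0.0598% in the shortest bin and 2.77% in the longest (12 of 433 genes). PLCB1, EXOC4, a subunit of the exocyst, and SMYD3, a methyltransferase, are among the long genes that fell, at spans of 891110, 813517 and 757971 bp. All 3 were not called with no filter, and SMYD3 was not called with a pseudocount of 0.1, with median-of-ratios scaling or in the compared groups only.

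The median level differed between bins as well, at 10.7, 17.9, 13.3, 9.55 and 6.61 TPM from the shortest bin to the longest. Its part in the pattern was not tested. With columns scaled to 1e+06 the median of the 10 to 30 kb bin was -0.003, and the other bins kept their sign. The same bins had medians of 0.23, -0.04, -0.39, -0.66 and -0.93 with candidate 42 ASO3, which shares the control libraries, and of 0.01, 0.05, 0.04, -0.05 and -0.21 with ASO5 in A549, which does not. MAGED2, with a span of 8417 bp, COCH (20552 bp) and TSPAN31 (12207 bp) are short genes that fell all the same, although TSPAN31 was not called with columns scaled to 1e+06 or in the compared groups only.

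**Figure D4:**
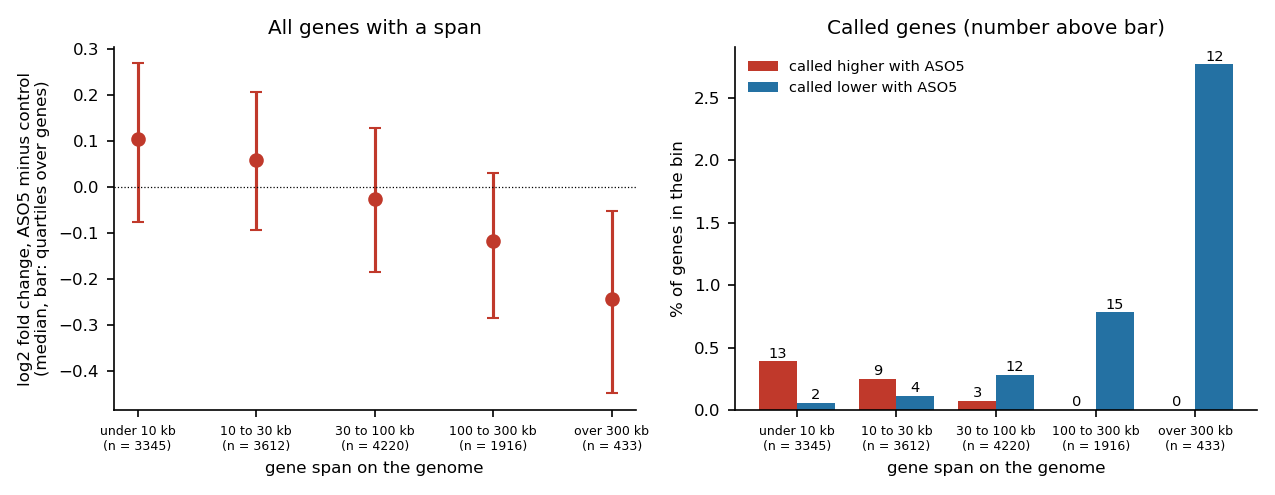
Left, the median and quartiles over genes of the log2 fold change, candidate 42 ASO5 minus control in NCI-H460, in 5 bins of gene span. Right, the share of genes in each bin called higher or lower, with the number called above each bar. The median goes from 0.10 in the shortest bin to -0.24 in the longest, and 27 of the 45 lower genes lie in the 2 longest bins.

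Set against all other NCI-H460 libraries, 9 of the 25 higher genes were higher in both ASO5 libraries than in any of the other 8 (36%), beside 5.62% of all genes tested. These were SNORA11, CEND1, KDM8, PLTP, TP53I3, CXCL2, CXCL3, PLIN2 and ID3. Of the 45 lower genes, 18 were lower in both ASO5 libraries than in any other (40%), beside 2.08% of all genes, RBM6, FARS2, REPS1, DHX32, BBS2, GALNT12, TSEN15 and MAGED2 among them. The genes were picked by the comparison with 2 of these 8 libraries, so the shares are a description. PGF, the placental growth factor gene, is an example outside them: it stood at 2.75 and 3.72 TPM with ASO5, against 0.621 and 0.523 TPM with the control (1.79, adjusted p = 0.0109), and at 4.83 and 4.98 TPM with candidate 240 ASO3. PGF was not called in the compared groups only and is not tested at a mean of at least 5 TPM.

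The direct test of ASO5 against ASO3 in NCI-H460 called 4588 of 13774 genes (33.3%), 3814 higher with ASO5 and 774 lower. The median difference over all genes was 0.21 on the log2 scale and -0.0006 with median-of-ratios scaling, so single differences are to be read against 0.21. Of the 25 genes higher with ASO5 than with the control, 9 were also higher than with ASO3, 4 were lower and 12 were not called. Of the 45 lower genes, 12 were also lower than with ASO3, 14 were higher and 19 were not called. Beside these counts, 27.7% of all genes were called higher with ASO5 than with ASO3 and 5.62% lower. The genes were picked with the same ASO5 libraries, so the counts are a description. REPS1 (-0.91), RBM6 (-0.71), BBS2 (-0.69) and GALNT12 (-0.66) were lower with ASO5 than with either other group, with adjusted p-values of 0.000638 to 0.00486. HIPK2 (1.08) was higher with ASO5 than with ASO3 and lower than with the control, as were ANTXR1 (1.03), an anthrax toxin receptor, and ASPH (0.94), an aspartate hydroxylase. Against the control, ANTXR1 and ASPH were not called with no filter or with columns scaled to 1e+06, nor ANTXR1 with a pseudocount of 0.1.

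The largest differences between the ASOs concerned genes that were not called with ASO5 against the control. TEAD1, a partner of the coactivator YAP, stood at 13.8 and 17.3 TPM with ASO5, at 0.84 and 1.4996 TPM with ASO3 and at 20.9 and 21.3 TPM with the control (ASO5 minus ASO3 3.28, SE 0.19, adjusted p = 5.9e-05). VCL, the focal adhesion protein vinculin, stood at 52.3 and 59.4 TPM with ASO5, at 4.34 and 7.63 TPM with ASO3 and at 52.7 and 53.2 TPM with the control (3.16, adjusted p = 7.2e-05). RBM14-RBM4, a readthrough of 2 RNA-binding protein genes, stood at 16.8 and 22.9 TPM with ASO5, at 1.06 and 2.13 TPM with ASO3 and at 24.6 and 21.4 TPM with the control (3.31, adjusted p = 0.000137). In the other direction, AL139317.3 was listed at 0 in both ASO5 libraries and stood at 18.6 and 6.22 TPM with ASO3 and at 0 and 0.142 TPM with the control (adjusted p = 0.000667). AC011472.3 stood at most at 2.48e-06 TPM with ASO5, at 7.16 and 4.09 TPM with ASO3 and at most at 0.00568 TPM with the control (adjusted p = 0.000551). The remaining genes picked by the same rule, LSM12P1, AC099329.1 and RNA5SP82 on the higher side and AL583722.1, AC011511.4, AC087292.1 and AC018557.1 on the lower side, were called too, with adjusted p-values of 0.00182 to 0.0356.

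With the same ASO in A549, 563 of 14740 genes were called (3.82%), 209 higher (1.42%) and 354 lower (2.4%). The lines share no control libraries, but A549 had 3 libraries a group and NCI-H460 had 2, so the counts do not show which line responded more. Of the 63 NCI-H460 calls also tested in A549, 36 (57.1%) were called there in the same direction, 8 higher and 28 lower, and 0 in the opposite direction. The 36 are 7.47% of the A549 calls among the 12760 genes tested in both lines, of which 3.78% were A549 calls. In 61 of the 63 the sign was the same, the exceptions being CXCL3 and ID3. Across the 12760 genes the log2 fold changes of the lines had a Pearson r of 0.331, a description over genes that share libraries.

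Higher in both lines were CEND1 (2.07 in NCI-H460, 2.17 in A549), KDM8 (1.69 and 1.57), CYSRT1 (1.51 and 1.20), IFI30 (0.87 and 0.94), NFKB2 (0.86 and 0.90) and CDKN1A (0.62 and 0.65). KDM8 stood at 11.9 ± 0.973 TPM with ASO5 in A549, against 3.76 ± 1.23 TPM with the control (SD, n = 3 each). CDKN1A stood at 225 ± 10.01 TPM with ASO5 there, against 144 ± 17.5 TPM with the control (SD, n = 3 each). PGF and APOE completed the 8. Of these 8 genes, 0 were called and 0 had an unadjusted p under 0.05 in the test of the difference between lines.

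Lower in both lines were RBM6 (-1.31 in NCI-H460, -1.93 in A549), DHX32 (-1.01 and -2.08), FARS2 (-1.16 and -1.85), REPS1 (-1.08 and -1.81), PTPN12 (-0.93 and -1.63), MAGED2 (-0.91 and -1.62), BABAM2 (-0.93 and -1.60) and TSEN15 (-0.99 and -1.53). PTPN12 is a tyrosine phosphatase and BABAM2, which was not called in NCI-H460 with no filter, a part of the BRCA1-A complex. In A549, RBM6 stood at 3.73 ± 1.02 TPM with ASO5, against 15.3 ± 0.0561 TPM with the control (SD, n = 3 each), so that no library of the groups overlapped. The fall was larger in A549 for 24 of the 28 lower genes. These 28 were kept because they were also called in A549, which favours larger falls there, so the count is a description. Most lower NCI-H460 calls that were tested but not called in A549 fell more in NCI-H460, PCCB, IARS1, OPN3 and ANTXR1 among them. NRCAM and HIPK2 of that set fell more in A549. None of the 28 passed the test of the difference between lines (limma, smallest adjusted p = 0.233), although 13 had an unadjusted p under 0.05, DHX32 among the largest at a difference of 1.07. In a fit with the replicate number as a block, MAGED2 (0.72) and UBAC2 (0.57) passed it.

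**Figure D5:**
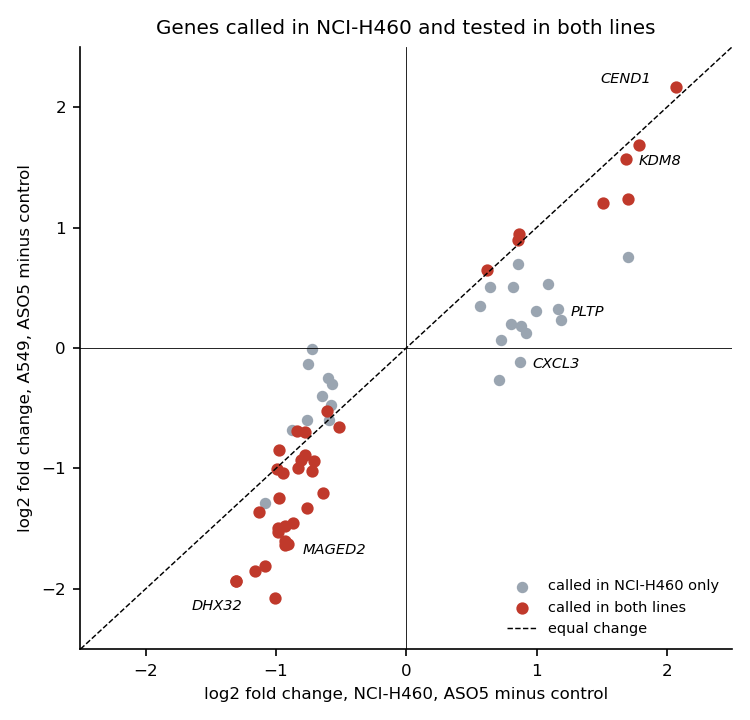
Log2 fold change with candidate 42 ASO5 against control in NCI-H460 (x axis) and in A549 (y axis) for 61 genes called in NCI-H460 and tested in both lines; 2 genes listed at 0 in a group, SNORA11 and PVRIG2P, are left out. Most lower genes lie under the dashed line of equal change, and the 36 genes called in both lines are in red.

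Several genes called in NCI-H460 were not called in A549. PLTP stood at 2.93 ± 0.374 TPM with ASO5 in A549, against 2.24 ± 0.181 TPM with the control (SD, n = 3 each, log2 fold change 0.32, adjusted p = 0.352). CXCL2 and CXCL3 had log2 fold changes of 0.07 and -0.11 in A549, and their differences between lines, 0.66 and 0.99, were not called (adjusted p = 0.889 and 0.494). Over the NF-kB list the medians were 0.23 in NCI-H460 (20 genes) and 0.07 in A549 (18 genes), and no test of this difference was made.

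The test of the difference between lines, as the ASO5 response in NCI-H460 minus that in A549, called 5 of 14769 genes (0.0339%), and 968 had an unadjusted p under 0.05. None of the 70 genes called in NCI-H460 was among the 5. Of the 70, 33 had an unadjusted p under 0.05, beside the 968 of all 14769 genes. The 70 were picked with the same NCI-H460 libraries, which favours a difference, so the count is a description. AC009119.1, one of the 70, was listed at 0 in every A549 ASO5 and control library, so no fall could be seen there. In a fit with the replicate number as a block 39 genes were called, 5 of the 70 among them.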

How the data were processed

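RNA of NCI-H460 and A549 cells was sequenced from NEBNext Ultra libraries, per the labels' protocols. Per the submitters' processing notes, kallisto, sleuth 0.30 and the build hg38 were used. Neither names an annotation release or a strand setting. The authors deposited a signal per gene name, as TPM, whose column sums differ between libraries, so the values had been rescaled. Per the file headers, the authors' tables of comparisons list genes with their log2 fold changes and q-values.

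Tests were run in R 4.3.3 with limma 3.58.1 on log2(TPM + 0.5), a scale that understates the change of low genes. The filter was a mean of 1 TPM or more. The model had a mean per group over all 10 NCI-H460 libraries (5 residual degrees of freedom), over all 15 A549 libraries (10 degrees of freedom) or, for the difference between lines, over all 25 libraries (15 degrees of freedom), with eBayes and a trend. P-values were two-sided and adjusted after Benjamini and Hochberg across the whole table, with calls made at an adjusted p under 0.05. The scripts were tested on simulated data. Replicate numbers did not pair the libraries in the labels.

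Named genes are the 12 highest and 12 lowest calls with no overlap between groups and a group mean of at least 5 TPM, the called list members, AC107959.3 and TNFRSF10B, the 6 extremes each way of ASO5 minus ASO3, and up to 8 each way called in both lines. Other genes named were chosen after their values were seen. The comparison, the gene lists and the rules were chosen with earlier results of these data known. A Y-linked gene among the 70 is counted and not described. The members of 1 list are counted among the calls, and the list is not reported here.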

Additional observations from a re-analysis of the deposited data

Results flagged for a closer look

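The responses to candidate 42 ASO5 differed between NCI-H460 and A549, by a test of the difference itself (limma, all 25 libraries, Benjamini-Hochberg over 14769 genes), for 5 genes. CLDN2, a tight junction claudin, had a difference of 1.35 (SE 0.20, adjusted p = 0.0116), but lay at 0.0472 TPM or less in all compared NCI-H460 libraries. It stood at 11.5 ± 1.15 TPM with ASO5 in A549, against 28.5 ± 3.71 TPM with the control (SD, n = 3 each), so in NCI-H460 there was next to no transcript to compare. COL18A1, a basement membrane collagen, had a difference of 1.09 (SE 0.16, adjusted p = 0.013), with 5.202 and 4.53 TPM with ASO5 in NCI-H460, against 3.17 and 2.83 TPM with the control. In A549, COL18A1 stood at 83.5 ± 5.79 TPM with ASO5, against 116 ± 11.7 TPM with the control (SD, n = 3 each).

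RAB3B, a GTPase of vesicle traffic, had a difference of -1.31 (SE 0.15, adjusted p = 0.0012). It stood at 15.3 and 15.8 TPM with ASO5 in NCI-H460, against 23.2 and 25.3 TPM with the control, and at 4.06 ± 0.209 TPM with ASO5 in A549, against 2.35 ± 0.192 TPM with the control (SD, n = 3 each). ACSS2, which makes acetyl-CoA from acetate, had a difference of -0.895 (SE 0.15, adjusted p = 0.0372), with 21.4 and 26.9 TPM with ASO5 in NCI-H460, against 21.5 and 23.6 TPM with the control, and 46.7 ± 2.42 TPM with ASO5 in A549, against 23.3 ± 1.29 TPM with the control (SD, n = 3 each). AC044860.1 had a difference of -1.59 (SE 0.26, adjusted p = 0.0345), with 0.752 and 0.599 TPM with ASO5 in NCI-H460, against 1.96 and 1.597 TPM with the control, and 8.49 ± 0.543 TPM with ASO5 in A549, against 5.31 ± 0.903 TPM with the control (SD, n = 3 each). None of the 5 was called in NCI-H460 alone, where CLDN2 lay under the filter.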

How the results depend on the processing

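Depth is unknown and each group has 2 libraries, which limits every call. Against 70 genes called for ASO5 minus control, the counts were 65 and 69 with pseudocounts of 0.1 and 1, 88 with no filter, 77 with a mean of at least 5 TPM, 66 with median-of-ratios scaling, 42 with columns scaled to 1e+06 (15 higher, 27 lower) and 64 in a fit of the compared groups only. All 70 kept their sign wherever tested. Since their groups did not overlap, only another scaling could have changed it. With no filter 35 of the 70 were still called, in a fit of 36607 genes. Leaving out 1 library at a time gave 0 to 0 calls, with all 70 at an unadjusted p under 0.05 and a smallest adjusted p of 0.0751 to 0.105; the lone library left in a group is assumed to vary like the other groups. Without the candidate 42 ASO3 libraries, an alternative chosen after seeing the data, 380 genes were called.

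Of 35 lists, 3 had at least 2 called members as reported, against 1 with no filter, 16 without the ASO3 libraries and 0 to 0 with 1 library left out. Of the 24 genes with the highest and lowest changes, 14 were called with no filter, 15 with columns scaled to 1e+06 and 0 to 0 with 1 library left out. AC107959.3, at -0.01 as reported, was at 0.0031 with a pseudocount of 0.1, at 0.13 without ASO5 replicate 2 and at 0.38 without control replicate 2, over a range of -0.39 to 0.38; the filter at 5 TPM leaves it out. ASO5 minus ASO3 gave 4588 calls as reported, 1784 in the compared groups only and 1982 to 6249 with 1 library left out. The difference between lines gave 5 calls as reported, 87 with no filter, 1 with columns scaled to 1e+06, 0 in the compared groups only and 1 to 7 with 1 library left out. The causes were not tested.

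With the replicate number as a block, 50 genes were called (46 of the 70), 4638 for ASO5 minus ASO3 and 39 for the difference between lines. The 5 of the 70 among the 39 were ID3, MAGED2, KCNF1, NT5C2 and UBAC2. Of the genes named, APOE, OASL, LIPA, IFI30, STARD10, AC009119.1, AC109466.1, EXOC4, TSPAN31 and ASPH were not called for ASO5 minus control with the block. Nor were PCCB, NRCAM, OPN3 and KCNF1. In A549, where the block was tried after seeing the data, 1533 genes were called against 563 as reported, among them 48 of the 63 NCI-H460 calls tested in both lines, in the same direction, against 36. The labels share only the number. Deviations from the group means of same-numbered ASO5 and control libraries had correlations across genes of -0.0089 in NCI-H460 and of 0.321, 0.0213 and 0.212 for A549 replicates 3, 4 and 5. Replicate 3 thus stood apart alike in both A549 groups, but replicate 4 did not. ASO5 replicate 4 correlated best with control replicate 5 (0.0759). ASO5 replicate 5 correlated about equally with control replicates 4 and 5 (0.215 and 0.212). These values do not decide whether the number marks a pairing. The block was not part of the main model, and the A549 and between-line counts depend on it.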
